A study of Mus musculus with 8 samples.

Results

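The immunoglobulin heavy and kappa variable genes are the 219 rows of the deposited expression table whose symbol starts with Igkv (105 rows, kappa light chain) or Ighv (114 rows, heavy chain), out of 41128 rows in all. They were followed in whole-tissue sections of the ileum, all cut within the last 6 cm before the ileocecal valve of 8 FVB mice, with 1 library per mouse. The untreated groups were Cftr -/- mice (KO, n = 3) and their sex-matched Cftr N/N littermates (WT, n = 3), with couples 1 and 3 female and couple 2 male. A further couple, labelled female, drank water with 2 antibiotics, ciprofloxacin at 0.3 g/L and metronidazole at 0.5 g/L (1 KO and 1 WT). All mice were reared on a low fiber diet with an osmotic laxative, which had been stopped for more than 4 days before sampling. Both mice of a couple were sampled in a 20 min window around midday. The sources used here do not give their age. The Cftr allele is a null allele in the whole animal, named Cftrtm1Cam.

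A B cell builds its antibody by joining 1 variable segment of the heavy chain locus and 1 of a light chain locus to short diversity or joining segments and a constant region. The progeny of a B cell keep the joined segments, so the set of variable segments in a tissue reflects which B cell clones and plasma cells it holds. In the gut lamina propria most plasma cells make IgA, which is joined by the J chain and carried across the epithelium by the polymeric immunoglobulin receptor. In bulk tissue, fewer cells of a type and less RNA per cell cannot be told apart.

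GENCODE M21 on GRCm38 places the Igkv members on chromosome 6 and the Ighv members on chromosome 12. It calls 201 of the 219 members variable genes and 16 pseudogenes, and 2 rows (Igkv19-93_1 and Igkv19-93_2) have no gene of that exact name. A variable gene has a short leader exon and a variable exon. The last bases of the variable exon are given for the Igkv member with the highest mean level (Igkv1-117), for Igkv1-135 and Igkv6-15, which were higher in KO, and for 3 of the leading Ighv members. Each is read 5′ to 3′ along the transcript from the C57BL/6J reference, and the capitals mark the last in-frame cysteine codon, after which the antigen-binding loop formed by the joint begins.
Igkv1-117 (chr6:68121708-68121827, plus strand): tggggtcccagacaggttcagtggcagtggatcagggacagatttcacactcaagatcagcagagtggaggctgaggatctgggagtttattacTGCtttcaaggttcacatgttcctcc
Igkv1-135 (chr6:67610389-67610508, plus strand): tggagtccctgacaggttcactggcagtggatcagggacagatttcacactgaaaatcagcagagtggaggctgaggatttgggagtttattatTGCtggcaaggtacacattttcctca
Igkv6-15 (chr6:70406469-70406588, minus strand): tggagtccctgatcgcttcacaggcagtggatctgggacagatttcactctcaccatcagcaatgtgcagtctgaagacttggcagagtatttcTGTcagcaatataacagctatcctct
Ighv3-1 (chr12:113964388-113964507, minus strand): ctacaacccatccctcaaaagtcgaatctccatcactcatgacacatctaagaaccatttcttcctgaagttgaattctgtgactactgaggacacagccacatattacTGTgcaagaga
Ighv8-12 (chr12:115647945-115648064, minus strand): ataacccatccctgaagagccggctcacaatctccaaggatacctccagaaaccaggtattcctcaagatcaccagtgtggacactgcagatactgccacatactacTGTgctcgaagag
Ighv1-53 (chr12:115158403-115158522, minus strand): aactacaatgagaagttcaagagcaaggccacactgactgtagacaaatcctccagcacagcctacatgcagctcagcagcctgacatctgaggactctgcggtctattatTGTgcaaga

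Members resemble each other closely enough to share reads. Of the 217 members with a reference transcript, 175 had at least 1 stretch of 50 bases in common with another variable gene, and the median share of such stretches was 22.3%. In 30 members more than 50% of the stretches were shared. Capitals in the following pairs stand for the bases that differ from the first of each pair. Igkv4-69 differed from Igkv4-70 at 3 of the last 120 bases, Igkv10-94 from Igkv10-96 at 12, and Ighv1-62-2 from Ighv1-71 at 0. The level of a single member is therefore uncertain, and the sums over each family are less exposed to the choice of paralog.
Igkv4-70 (chr6:69267888-69268007, minus strand): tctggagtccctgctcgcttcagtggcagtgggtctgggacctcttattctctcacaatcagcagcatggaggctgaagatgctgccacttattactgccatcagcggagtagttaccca
Igkv4-69 (chr6:69283794-69283913, minus strand): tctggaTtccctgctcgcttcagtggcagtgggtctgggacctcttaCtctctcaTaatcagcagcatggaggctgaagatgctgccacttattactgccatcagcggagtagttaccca
Igkv10-96 (chr6:68631963-68632082, minus strand): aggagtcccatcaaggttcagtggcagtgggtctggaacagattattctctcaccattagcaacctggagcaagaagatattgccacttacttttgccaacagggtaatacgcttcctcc
Igkv10-94 (chr6:68704508-68704627, minus strand): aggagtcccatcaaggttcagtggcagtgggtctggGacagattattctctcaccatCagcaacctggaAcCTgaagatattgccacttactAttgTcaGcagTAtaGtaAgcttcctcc
Ighv1-71 (chr12:115742205-115742324, minus strand): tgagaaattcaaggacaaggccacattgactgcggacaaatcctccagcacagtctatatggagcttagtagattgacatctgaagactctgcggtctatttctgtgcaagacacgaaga
Ighv1-62-2 (chr12:115446409-115446528, minus strand): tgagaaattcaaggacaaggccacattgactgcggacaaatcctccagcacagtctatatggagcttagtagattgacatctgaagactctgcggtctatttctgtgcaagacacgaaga

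The values are taken as RPKM-like levels, with an unknown read depth and an unstated normalization. The 4 libraries of couples 1 and 2 have 20896 genes above 0 each, and couple 3 has 11931 in KO and 11912 in WT. The antibiotic couple has 13749 in KO and 13672 in WT, so the values were taken to come from 3 sets. Ratios within a couple stay within a set. The main fit had no term for the set, and it and statements on overlap of the groups compare values across sets. Cftr was 2.65 to 3.74 in untreated KO and 9.94 to 12.4 in untreated WT ileum, and 4.94 in KO and 13.8 in WT with antibiotics. The WT library of the antibiotic couple has irregular values: 9 members share a non-zero value with another gene there, against 0 or 1 in each other library, and 19 members are listed at 0 with at least 1 in the KO littermate, against 0 to 6 elsewhere. Several of these 28 members are neighbours in alphabetical order, such as Igkv10-94, Igkv10-95 and Igkv10-96. For the sums, the counts of members and the concentration of that couple, values without these members are also given.

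The summed level of the Igkv members was higher in KO than in WT ileum in each of the 4 couples. In untreated KO libraries of couples 1, 2 and 3 the Igkv sum was 3969.5, 2412 and 2715, against 1576, 1118 and 1723 in their WT littermates. The KO over WT ratio was 2.52, 2.16 and 1.58, a mean log2 ratio of 1.03 ± 0.34 (SD, n = 3 couples). With antibiotics the sum was 2331 in KO and 559 in WT ileum, a ratio of 4.17 in 1 couple with no replicate (4.01 without the 15 Igkv members with irregular WT values). Every untreated KO library lay above every untreated WT library. Among all 11717 tested genes 10.4% had every KO value above every WT value, and 12.1% the reverse.

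The Ighv sum was also higher in KO in each couple, by a more variable amount. It was 3438, 1425 and 1575 in KO libraries of couples 1, 2 and 3, against 1324, 908 and 1404 in WT. These untreated ratios were 2.60, 1.57 and 1.12, a mean log2 ratio of 0.73 ± 0.61 (SD, n = 3 couples). The lowest KO sum (couple 2) and the highest WT sum (couple 3) were close, although the groups did not overlap. Under antibiotics the Ighv sum was 1577 in KO and 386 in WT ileum, a ratio of 4.09 (3.79 without the 13 Ighv members with irregular WT values). Since the members were chosen with earlier results known, the sums carry no test.

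Variable segments are joined to constant genes in the same transcripts. Igkc, Ighg1 and the sum of the heavy constant genes, most of it Igha, were higher in KO in each couple. The heavy constant genes Ighm, Ighg2b, Ighg2c and Ighg3 varied in direction. Igkc, the kappa constant gene, was 4661, 3910.4 and 2964 in untreated KO and 1481, 1159.7 and 1873 in untreated WT ileum (log2 change 1.36, SE 0.37, limma adjusted p = 0.125, and 0.0338 with the couple as a block). It was 2460.35 in KO and 573 in WT with antibiotics. If the levels are per length, as assumed here, the variable sum can be set against the constant gene. The Igkv sum was 0.852, 0.617 and 0.916 times Igkc in untreated KO and 1.06, 0.964 and 0.92 times in untreated WT libraries, and 0.948 in KO and 0.975 in WT with antibiotics. The lowest of these 8 values was that of KO of couple 2. The Ighv sum was 0.654 to 0.905 times the sum of 7 heavy chain constant genes in untreated KO and 0.722 to 0.994 times in untreated WT libraries.

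Igha, the constant gene of IgA, made up 90.0% to 98.2% of the heavy constant level in untreated KO and 93.6% to 99.1% in untreated WT ileum. Igha was 3582, 2139 and 2075 in KO and 1246, 1189 and 1827 in WT of couples 1, 2 and 3 (log2 change 0.85, SE 0.38, limma adjusted p = 0.329). It had 1954 in KO and 519 in WT with antibiotics. Ighm, the IgM constant gene, was 34.0, 9.23 and 59.2 in KO and 27.3, 34.5 and 5.4 in WT, lower in KO of couple 2 and higher in KO of couples 1 and 3. Ighg2b, Ighg2c and Ighg3 were also lower in KO of couple 2 (log2 -0.46, -0.49 and -2.53 on level + 1). Ighg1 was 67.5, 17.3 and 27.7 in KO and 12.1, 8.71 and 5.7 in WT (limma adjusted p = 0.116, and 0.0276 with the block). None of the 6 tested heavy constant genes passed by limma without the block, and 1 of them had an unadjusted p under 0.05. The lambda variable gene Iglv1 was 17.1, 24.3 and 44.2 in KO and 10.3, 12.0 and 12.3 in WT (limma adjusted p = 0.129, and 0.0358 with the block), whereas Iglv2 was 8.23, 34.0 and 6.76 in KO and 16.6, 13.2 and 15.2 in WT. All 9 kappa and heavy joining segments and all 20 heavy diversity segments in the table were listed at 0 in each library.

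**Figure D1:**
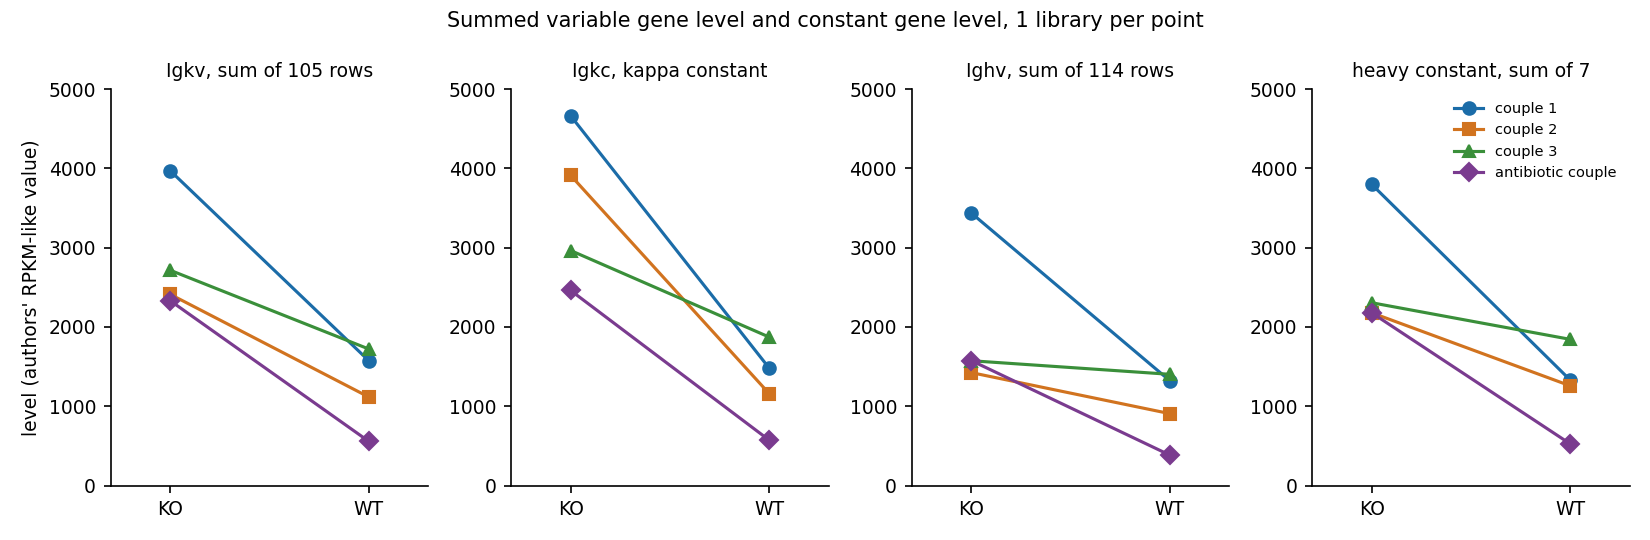
Summed level of the Igkv rows, level of Igkc, summed level of the Ighv rows and summed level of 7 heavy chain constant genes (y axis, the authors' RPKM-like value) in KO and WT libraries, 1 point per library and 1 line per couple. Each line is higher at KO than at WT, with 3969.5 in KO and 1576 in WT for the Igkv rows of couple 1.

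Single members were tested by limma over the whole table, at an adjusted p under 0.05. Of the 105 Igkv members 82 passed the filter on low values, and of the 114 Ighv members 90. Of the other 47 members, 7 were listed at 0 in all 8 libraries. 1 of the tested members passed the filter through KO libraries alone. 4 tested Igkv members and 1 tested Ighv member rose in untreated KO ileum and 0 fell, where 1.15% of all tested genes rose and 1.01% fell. At an unadjusted p under 0.05 by limma there were 41 members, all of them higher in KO. The share of all tested genes at that unadjusted threshold was not computed. With the couple as a block 17 Igkv and 18 Ighv members rose and 1 of each fell, where 8.4% of all tested genes rose and 9.91% fell.

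Igkv1-135 had the highest mean level in untreated KO libraries among the 5 called members (152). It had 153, 189 and 113 in KO and 33.6, 18.1 and 40.9 in WT libraries of couples 1, 2 and 3 (log2 change 2.31, SE 0.33, limma adjusted p = 0.0185). The lowest KO value was above the highest WT value. It had 31.0 in KO and 1.94 in WT with antibiotics, and this WT value is 1 of the shared ones. Its call was lost without KO of couple 1, KO of couple 2 or WT of couple 1 (adjusted p at most 0.0662).

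Igkv6-15 had 79.6, 113 and 242 in KO and 34.1, 24.2 and 13.7 in WT (log2 change 2.47, SE 0.46, limma adjusted p = 0.042), with no overlap of the groups. With antibiotics it had 96.7 in KO and 13.4 in WT. Its call was lost whichever 1 of the 6 libraries was left out (adjusted p 0.0608 to 0.139). Igkv4-70 had 57.5, 17.3 and 53.1 in KO and 6.94, 6.88 and 3.14 in WT (log2 change 2.60, SE 0.47, limma adjusted p = 0.0397), and 11.7 in KO and 0.683 in WT with antibiotics. All 3 KO values were above the WT values, and the call remained only without KO of couple 2. Its near-identical neighbour Igkv4-69 was unlike it, with 1.68, 167 and 1.45 in KO and 0.197, 0.344 and 0.386 in WT, so that a single KO library carried nearly all of its level (limma adjusted p = 0.38).

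Igkv19-93_1, a row name with no match in the annotation, had 28.6, 23.7 and 12.7 in KO and 3.72, 3.9 and 3.32 in WT (log2 change 2.22, SE 0.28, limma adjusted p = 0.0127), and 18.3 in KO and 3.03 in WT with antibiotics. The KO values were spread more widely than the WT values, without overlap. Ighv1-71 had 8.25, 8.33 and 7.51 in KO and 2.73, 1.3 and 1.49 in WT (log2 change 1.70, SE 0.21, limma adjusted p = 0.00994). Both calls were lost only without WT of couple 3 (adjusted p 0.055 for Igkv19-93_1 and 0.0547 for Ighv1-71). Ighv1-62-2 contains every 50-base stretch of Ighv1-71, so reads cannot be assigned between them. It had 11.6, 8.33 and 5.65 in KO and 4, 1.84 and 2.56 in WT, did not overlap either, and missed the threshold (log2 change 1.32, SE 0.29, limma adjusted p = 0.0758).

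Of the 35 members that rose with the couple as a block, the largest changes beside the 5 above were those of Ighv1-2 (log2 2.67, adjusted p = 0.00616 with the block and 0.177 without), Igkv17-127 (2.33), Igkv4-80 (2.22), Igkv10-94 (2.05), Igkv8-24 (2.04) and Ighv2-2 (2.01). Ighv2-2 had 83.0, 30.1 and 102 in KO and 24.3, 6.35 and 21.2 in WT, without overlap (adjusted p = 0.00489 with the block and 0.144 without, limma). The annotation calls Ighv1-2 a pseudogene. It had 27.5, 4.23 and 32.8 in KO and was at 2.19, 0 and 5.12 in WT. Igkv6-14 (log2 -1.12) and Ighv1-18 (log2 -0.45) were lower with the block. Igkv6-14 had 11.3, 14.4 and 5.31 in KO and 44.2, 25.5 and 9.15 in WT, with overlapping groups (adjusted p = 0.0488 with the block and 0.383 without, limma).

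Members varied far more between mice of a group than other genes did. The residual SD of the log2 level had a median of 1.06 over the tested Igkv members and 0.93 over the tested Ighv members, against 0.25 over all tested genes. The median log2 change was 1.05 over the tested Igkv members and 0.73 over the tested Ighv members, against -0.01 over all tested genes. Of the 172 tested members, 74 were higher in KO in all 3 untreated couples and 6 were lower in all 3, where 28.1% and 32.5% of all tested genes were. That is 43.0% of the tested members higher. Every KO value was above every WT value in 29 of the 172 and the reverse held in 0, where 10.4% and 12.1% of all tested genes did so.

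**Figure D2:**
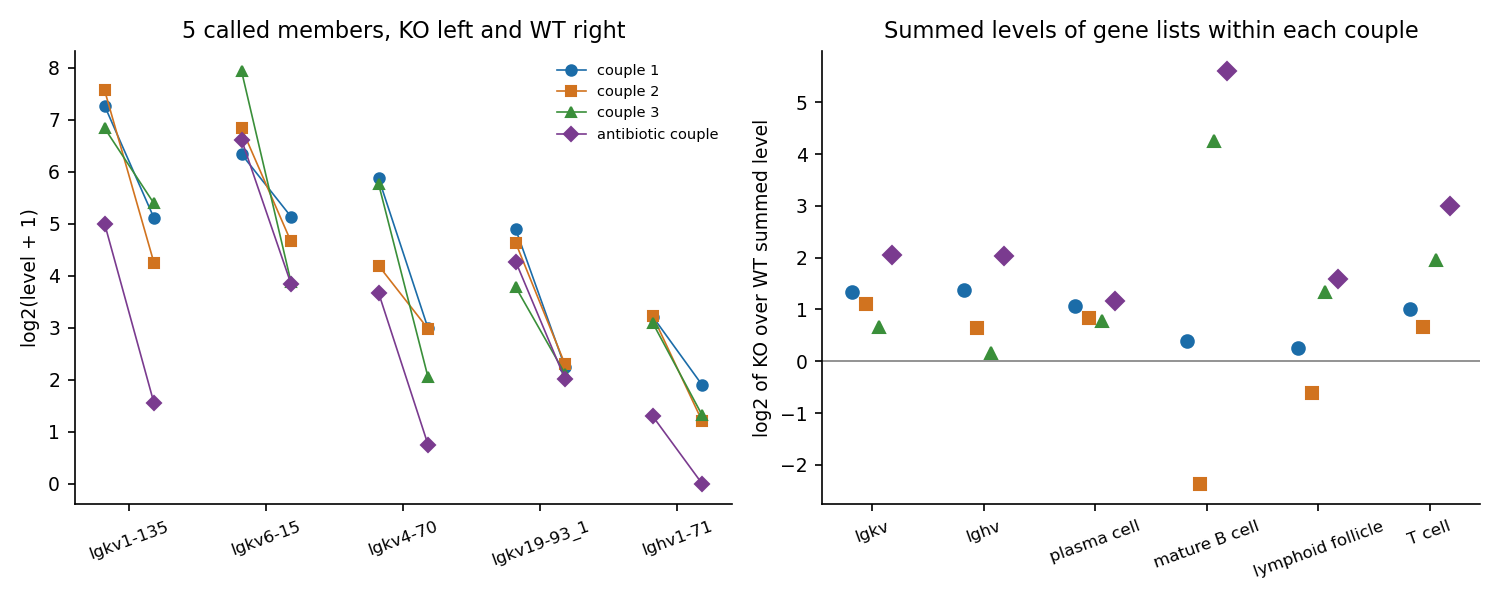
Left, log2(level + 1) of the 5 called members, with KO left of WT and 1 line per couple. Right, log2 of the KO over WT ratio of summed levels for the Igkv rows, the Ighv rows and 4 marker lists, 1 point per couple. The variable gene and plasma cell sums are above 0 in all 4 couples, and the mature B cell sum is at -2.36 in couple 2 and 5.60 in the antibiotic couple.

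Within couples, most members with a level of at least 1 in either littermate were higher in KO. For Igkv this was the case for 73 of 87 members in couple 1, 54 of 80 in couple 2 and 60 of 86 in couple 3, where 47.9%, 49.9% and 46.4% of all genes were higher. For Ighv it was 92 of 99, 59 of 84 and 59 of 93. At least 2-fold higher (on level + 1) were 48, 38 and 39 Igkv members and 53, 33 and 27 Ighv members, against 3.29%, 2.82% and 4.11% of all genes. At least 2-fold lower were 5, 12 and 11 Igkv members and 1, 8 and 12 Ighv members, against 2.61%, 2.96% and 2.42% of all genes.

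The members with the most extreme ratios differed from couple to couple. In couple 1 the highest ratios (log2 of level + 1, KO over WT) were those of Ighv8-12 (4.99), Igkv17-127 (3.87) and Igkv2-112 (3.86), and the lowest was that of Igkv4-63 (-1.91). Ighv8-12 had 195 in KO and 5.14 in WT of couple 1, 103 and 21.6 in couple 2, and 53.2 and 35.2 in couple 3. In couple 2 the highest ratios were those of Igkv4-69 (6.97), Igkv4-86 (4.19) and Ighv1-84 (3.71). The lowest ratio in that couple was that of Igkv1-88 (-3.16). In couple 3 Igkv5-45 (4.40), Igkv11-125 (4.21) and Igkv1-122 (4.11) had the highest ratios, and Ighv9-4 (-3.77), Ighv14-4 (-3.43) and Ighv14-1 (-3.21) the lowest. Ighv9-4 had 7.55 in KO and 116 in WT of couple 3, but 51.1 in KO and 3.06 in WT of couple 2. These single-couple ratios have no replicate.

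In the antibiotic couple 69 of 77 Igkv and 73 of 78 Ighv members were higher in KO, against 43.2% of all genes. At least 2-fold higher were 59 and 57 members, against 4.68% of all genes. Without the members with irregular WT values these counts were 56 of 62 and 60 of 65 (42.8% of all genes), and 46 and 45 at least 2-fold higher (3.47%). The median log2 ratio without them was 1.98 for Igkv and 1.60 for Ighv. Igkv2-137 had 63.5 in KO and 1.04 in WT with antibiotics, and Igkv4-72 had 177 in KO and 10.3 in WT. At least 2-fold lower were 4 Igkv and 3 Ighv members, against 1.93% of all genes (2 and 3 without the irregular members, against 1.03%). Igkv4-53 was 1 of them, with 14.6 in KO and 70.8 in WT. A test over all 8 libraries of whether the KO over WT change differed with antibiotics called 0 of 152 members by limma, with 18 at an unadjusted p under 0.05 (4.21% of all genes), and 4 genes in all (0.0347%). Antibiotic treatment cannot be told apart from its couple, litter and set of values.

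**Figure D3:**
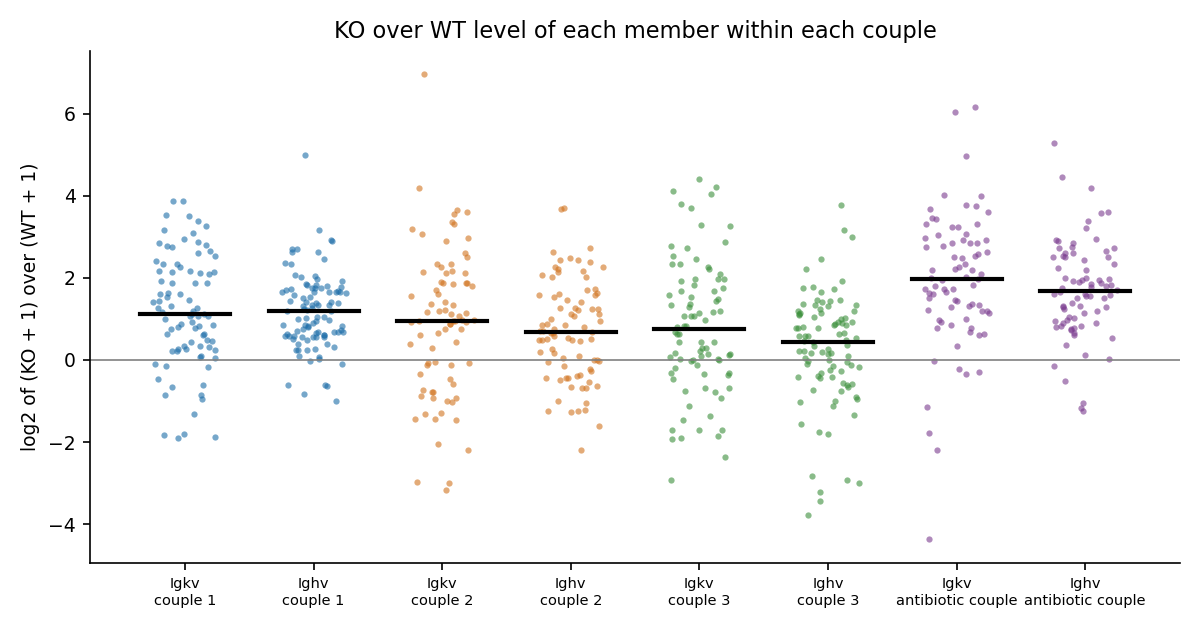
log2 of (KO level + 1) over (WT level + 1) for each member with a level of at least 1 in either littermate, by family and couple. Black bars mark the medians, which were 1.13, 0.96, 0.74 and 1.96 for Igkv and 1.19, 0.69, 0.43 and 1.67 for Ighv in couples 1, 2, 3 and the antibiotic couple.

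More members were above a level of 1 in KO than in WT of each couple. The number of Igkv members above 1 was 85, 74 and 83 in untreated KO and 73, 70 and 75 in untreated WT, and 75 in KO and 56 in WT with antibiotics. For Ighv it was 97, 84 and 89 in KO and 88, 67 and 81 in WT, and 76 in KO and 52 in WT with antibiotics. Among the 90 Igkv and 101 Ighv members with regular WT values, 62 and 63 were above 1 in KO and 50 and 52 in WT with antibiotics, so that the irregular zeros made up part of these gaps. Levels above 100 were reached by 10, 5 and 5 Igkv members in untreated KO and by 2, 0 and 3 in untreated WT libraries. In all 8 libraries, 49 Igkv and 46 Ighv members were above 1. The number above a fixed level follows the summed level and the unknown depth, and their part in it was not tested.

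No single segment held a large part of the sum in most libraries. The highest Igkv member held 9.7%, 7.82% and 8.93% of the Igkv sum in untreated KO and 7.99%, 7.77% and 17.8% in untreated WT libraries, and 7.71% in KO and 16.9% in WT with antibiotics. The highest Ighv member held 6.9%, 8.03% and 6.48% in KO and 5.45%, 9.07% and 8.24% in WT, and 5.96% in KO and 11.4% in WT with antibiotics. The 2 highest shares, in WT of couple 3 and WT of the antibiotic couple, were both those of Igkv1-117. The number of members that together made up 50% of the Igkv sum was 12, 12 and 11 in KO and 12, 10 and 7 in WT, and 10 in KO and 6 in WT with antibiotics. For Ighv it was 15, 13 and 14 in KO and 17, 13 and 14 in WT, and 13 in both littermates with antibiotics. Without the irregular members the highest Igkv member held 9.27% in KO and 19.5% in WT with antibiotics, and 8 members in KO and 6 in WT made up 50%.

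The inverse Simpson number, which gives the number of equally used segments that would be as concentrated, was 31.1, 30.9 and 29.2 for Igkv in KO and 32.1, 29.3 and 17.3 in WT, and 27.1 in KO and 15.5 in WT with antibiotics. For Ighv it was 39.95, 32.1 and 38.1 in KO and 46.0, 32.4 and 35.8 in WT, and 36.8 in KO and 28.9 in WT with antibiotics. Without the irregular members it was 23.6 in KO and 13.1 in WT for Igkv and 32.5 in KO and 28.6 in WT for Ighv with antibiotics. The Igkv profile was thus more concentrated in WT than in KO of couple 3 and of the antibiotic couple and close to equal in couples 1 and 2. These 2 WT libraries also had the lowest summed levels of mature B cell markers (7.01 in couple 3 and 2.23 with antibiotics). The next lowest was KO of couple 2 (14.2), whose Igkv inverse Simpson number was 30.9. A link between the marker levels and the concentration was not tested.

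**Figure D4:**
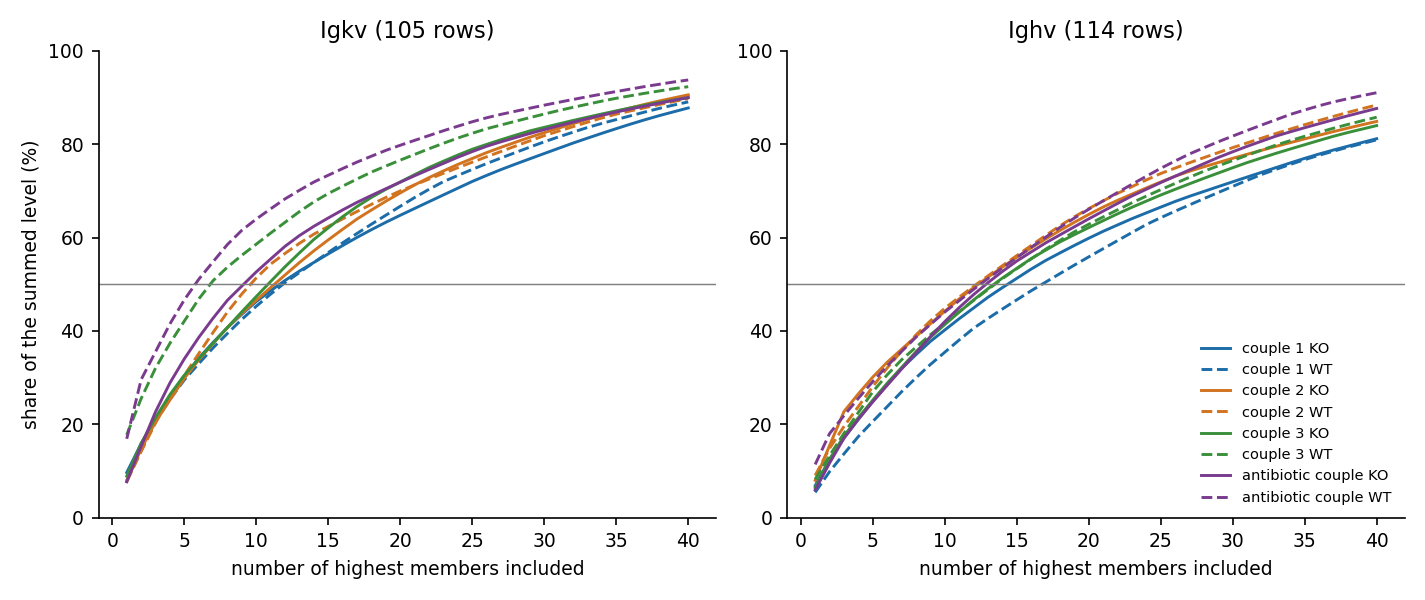
Share of the summed Igkv (left) and Ighv (right) level held by the highest members, added in order of level, with solid lines for KO and dashed lines for WT and 1 colour per couple. The grey line marks 50%, which was reached with 6 to 12 Igkv and 13 to 17 Ighv members.

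Which segment ranked first changed between mice. The highest Igkv member was Igkv10-96 (385), Igkv1-135 (189) and Igkv6-15 (242) in KO of couples 1, 2 and 3. It was Igkv10-96 (126), Igkv4-72 (86.9) and Igkv1-117 (306) in their WT littermates, and Igkv1-117 in both mice given antibiotics (179.9 in KO and 94.5 in WT). The highest Ighv member was Ighv3-1 (237), Ighv1-66 (114) and Ighv2-2 (102) in KO and Ighv1-53 (72.2), Ighv1-53 (82.4) and Ighv9-4 (116) in WT. With antibiotics it was Ighv1-64 (94.0) in KO and Ighv5-17 (44.1) in WT.

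The 5 Igkv members with the highest mean over all 8 libraries were Igkv1-117, Igkv10-96, Igkv1-110, Igkv6-15 and Igkv1-135. Igkv1-117 had 208, 53.2 and 191 in KO and 66.0, 43.1 and 306 in WT, with overlapping groups (log2 change 0.42, SE 0.79, limma adjusted p = 0.853). Igkv1-110, which shares 50.3% of its 50-base stretches with Igkv1-117, had 244, 65.0 and 81.0 in KO and 101, 49.0 and 81.4 in WT (limma adjusted p = 0.661). Igkv10-96 had 385, 85.0 and 149 in KO and 126, 38.2 and 133 in WT, and 70.8 in KO with antibiotics, where WT is listed at 0. The 5 leading Ighv members were Ighv3-1, Ighv8-8, Ighv1-64, Ighv8-12 and Ighv1-53. Ighv3-1 had 237, 45.3 and 59.0 in KO and 42.1, 42.6 and 37.2 in WT, with only KO of couple 1 far from the rest (log2 change 1.07, SE 0.56, limma adjusted p = 0.408). Ighv1-53 had 102, 34.5 and 56.9 in KO and 72.2, 82.4 and 22.0 in WT, with overlapping groups.

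Some segments were prominent in a single library. A share of at least 2% of the family sum that was at least 3 times the next highest share occurred for 6 members, a limit set after the values were seen. Igkv4-69 held 6.92% of the Igkv sum in KO of couple 2, 25.8 times its next highest share. Igkv4-53 held 12.7% in WT of the antibiotic couple, and Igkv6-32 held 6.54% and Ighv14-4 3.62% in WT of couple 3. Igkv14-100 held 3.47% in WT of couple 1. Igkv11-125 held 5.97% in WT of the antibiotic couple, but its value there (33.3) is also listed for Igkv1-110, and which gene it belongs to was not tested.

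**Figure D5:**
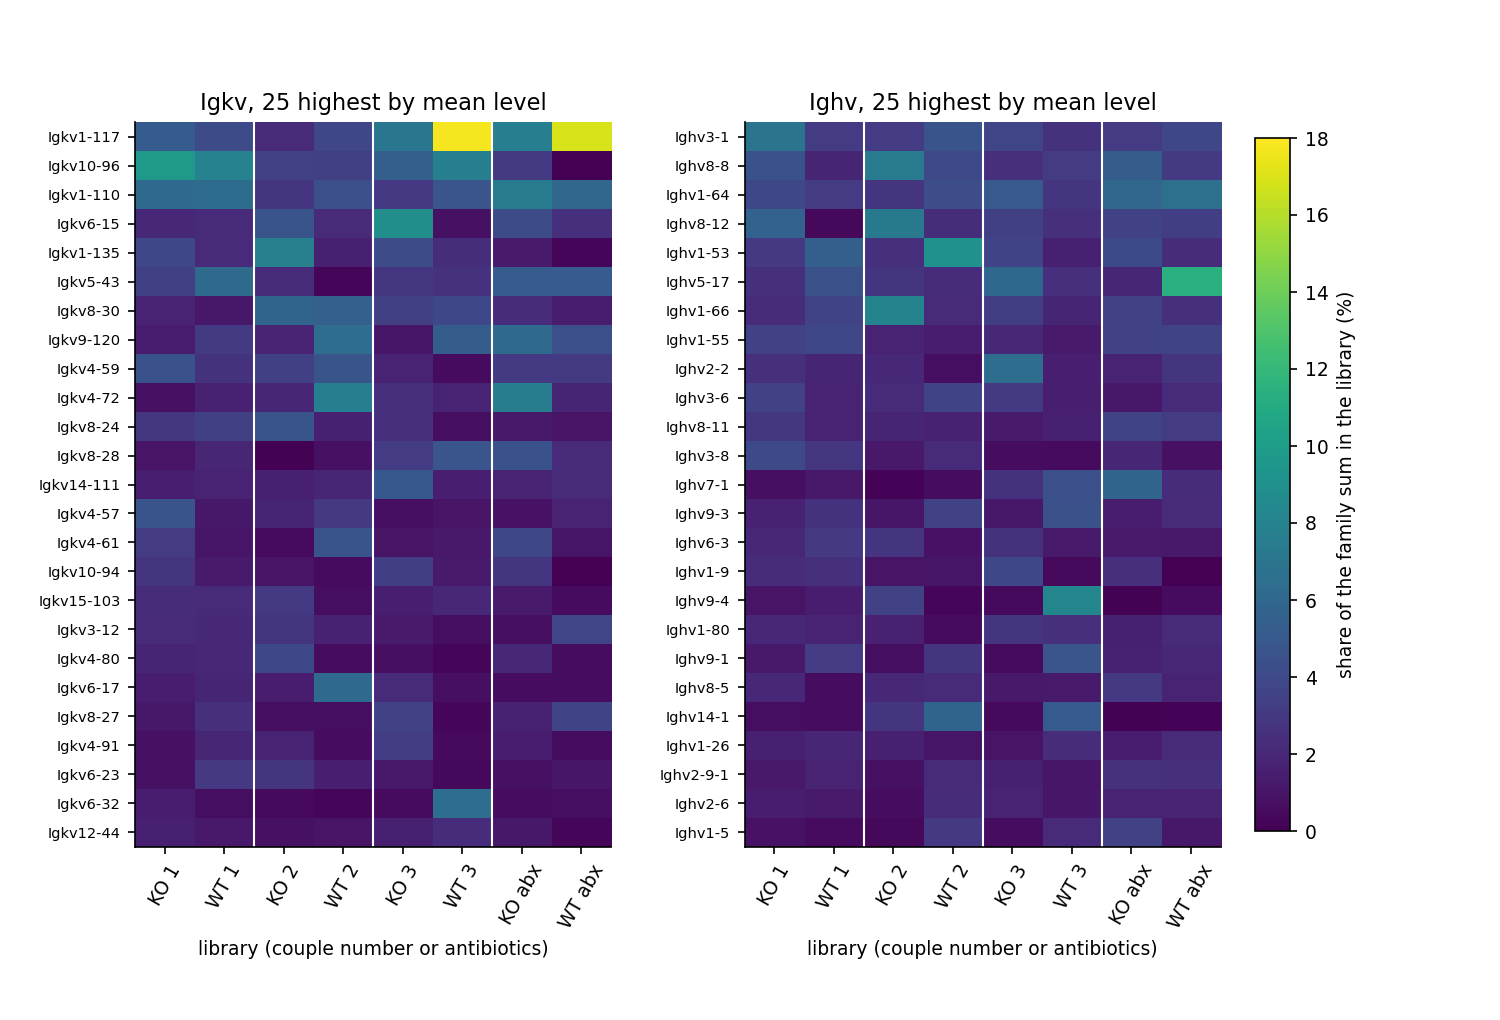
Share of the family sum (colour, %) of the 25 Igkv and 25 Ighv members with the highest mean level, in the 8 libraries with KO left of WT in each couple. Igkv1-117 stands out at 17.8% in WT of couple 3 and 16.9% in WT with antibiotics, and the highest member changes between libraries.

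By median overlap, the profiles of littermates were about as alike as those of mice from different couples. The overlap of 2 profiles, the sum over members of the smaller of the 2 shares, was 56.9% to 69.9% for Igkv in the 4 littermate pairs and 43.7% to 65.4% in the 24 pairs from different couples (medians 58.0% and 58.0%). For Ighv it was 60.5% to 73.8% in littermates and 58.0% to 74.1% otherwise (medians 66.5% and 65.5%). Untreated KO libraries overlapped each other by 57.0% to 62.8% for Igkv, and untreated WT libraries by 50.9% to 59.2%. These are descriptions over 105 and 114 members that share mapping, gene lengths and, within a set, the normalization. They include the members with irregular WT values. The lowest Igkv overlap, 43.7%, was that of KO of couple 2 with WT of the antibiotic couple.

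Subgroups, named by the first number of the symbol, held very unequal parts of the sums, and the single Ighv16 member was listed at 0 in all 8 libraries. Igkv4, the subgroup with most rows (27), held 13.2% to 29.3% of the Igkv sum, and Igkv1 (11 rows) 10.9% to 25.5%. Ighv1 (55 rows) held 37.4% to 54.1% of the Ighv sum and Ighv8 (9 rows) 4.92% to 18.9%. The summed level was higher in KO in all 4 couples for 10 of 19 Igkv and 6 of 16 Ighv subgroups. Igkv10 is among these 10 with a WT sum of 0 in the antibiotic couple, where its 3 members have irregular values. The subgroups were not counted without the irregular members. Ighv10, Ighv11, Ighv12, Ighv15, Ighv16 and Igkv18 had sums of 0 in both littermates with antibiotics, so they could not be higher in all 4 couples. The share of all genes higher in all 4 couples was not computed. The log2 KO over WT ratio of the Igkv4 sum was 1.82, 1.21 and 1.00 in couples 1, 2 and 3 and 2.09 with antibiotics, and that of Igkv3 was 2.18, 1.43, 1.42 and 1.61. Ighv14 differed between couples, with 1.21, -0.70, -3.42 and 1.78.

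Ordered along each locus from the joining segments in 3 near-equal groups of members, the nearest Igkv group held 26.4% to 38.7% of the sum, the middle 17.8% to 32.0% and the farthest 30.9% to 49.3%. For Ighv the nearest group held 24.0% to 41.6%, the middle 18.4% to 27.6% and the farthest 31.3% to 56.1%. Members annotated as pseudogenes held 0.029% to 0.57% of the Igkv sum and 1.32% to 5.55% of the Ighv sum. Ighv1-14, Ighv1-83 and Ighv1-2 were the highest of them, with means of 13.8, 13.8 and 9.71 over the 8 libraries. The annotation describes C57BL/6J and the mice were FVB, and whether these segments are intact in FVB was not tested.

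Genes of the B lineage gave the context of the sums. Of the 14 tested plasma cell genes, 4 rose and 0 fell without the block, and 7 rose with it, against 1.15% and 8.4% of all tested genes. The 4 were Mzb1, an endoplasmic reticulum protein of antibody-secreting cells, Prdm1, the regulator of plasma cell differentiation, Derl3, a factor of protein degradation in the endoplasmic reticulum, and Fkbp11, a peptidyl-prolyl isomerase. Mzb1 had 18.8, 13.1 and 23.7 in KO and 7.68, 6.63 and 5.64 in WT (log2 change 1.32, SE 0.23, limma adjusted p = 0.0353), and 13.4 in KO and 2.46 in WT with antibiotics. Igj, the J chain gene, had 565, 275 and 465 in KO and 213, 101 and 219 in WT (limma adjusted p = 0.163, and 0.0090 with the block), and 348 in KO and 83.0 in WT with antibiotics. Sdc1, the plasma cell surface marker CD138 that epithelium also makes, had 29.1, 32.9 and 35.8 in KO and 29.4, 37.1 and 38.9 in WT. The summed level of this list was 845, 532 and 751 in KO and 404, 299 and 436 in WT. It was 563 in KO and 253 in WT with antibiotics, and Igj was its highest gene in each of the 8 libraries. Without 1 library at a time, Mzb1 still passed in 1 of 6 fits and Prdm1, Derl3 and Fkbp11 in 0. Fkbp11 had 2.09 in KO and 2.79 in WT with antibiotics, and Sdc1 had 16.7 in KO and 25.9 in WT, both lower in KO.

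Markers of mature B cells followed another pattern. None of the 10 tested genes passed by limma with or without the block, and 0 had an unadjusted p under 0.05. Their summed level (12 genes) was 66.5, 14.2 and 133 in KO and 50.5, 72.7 and 7.01 in WT of couples 1, 2 and 3, and 108 in KO and 2.23 in WT with antibiotics. It was thus lower in KO than in WT of couple 2 and higher in the other 3 couples. Cd79a, a part of the B cell receptor, had 17.6, 4.61 and 39.8 in KO and 12.0, 20.5 and 2.4 in WT, and 31.2 in KO and 0.36 in WT with antibiotics. Pax5 was listed at 0 in WT of couple 3, and also in WT with antibiotics, where this is an irregular value beside 2.69 in KO. Lymphoid follicle genes (9 genes) summed to 119, 69.7 and 176 in KO and 100.4, 106 and 69.4 in WT, in the same order between couples as the B cell genes. Germinal centre genes (7 genes) summed to 16.3, 10.5 and 19.3 in KO and 13.4, 10.3 and 12.0 in WT, with 0 of 3 tested genes called by limma and 0 at an unadjusted p under 0.05. The part of follicles in the section in these variable gene sums was not tested.

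Without the block, 1 tested gene each of the T cell, ileal enterocyte and macrophage lists passed. Over all tested genes 1.15% were higher and 1.01% lower, and 8.4% were higher with the block. By limma, 7 of 10 T cell, 5 of 7 ileal enterocyte and 3 of 6 macrophage genes had an unadjusted p under 0.05. The share of all tested genes at that threshold was not computed. T cell genes (10 genes) summed to 63.1, 55.1 and 72.4 in KO and 31.2, 34.9 and 18.8 in WT, with 1 of 10 higher by limma (Cd3g, which still passed in 3 of 6 fits without 1 library) and 4 of 10 with the block (Cd3d, Cd3e, Cd3g and Lck). Ileal enterocyte genes (7 genes) summed to 5407, 4495 and 10482 in KO and 15191, 13711 and 20768 in WT, with 1 of 7 lower by limma (Lct) and 6 of 7 with the block, where 9.91% of all tested genes were lower. Slc10a2, the ileal bile acid transporter, was the exception, with 92.0, 63.7 and 153 in KO and 38.2, 56.3 and 46.0 in WT (adjusted p = 0.0762 with the block, limma). With antibiotics the enterocyte sum was 19632 in KO and 20237 in WT, with Fabp2 listed at 11279.7 in both. Within this sum Fabp6 (458 in KO and 4955 in WT), Slc10a2 (7.53 and 67.1) and Vil1 were lower in KO. Apoa4 was higher in KO (6822 and 2774), and Alpi and Lct slightly so. Macrophage genes (6 genes) summed to 124 to 216 in KO and 69.7 to 97.9 in WT, with 1 of 6 higher (Cd14) and 2 with the block (Cd14 and Lyz2). Lyz2, a lysozyme gene, was the highest gene of that list, and Cd68 and Csf1r had overlapping groups. Smooth muscle genes (4 genes) summed to 431, 272 and 434 in KO and 357, 527 and 512 in WT, higher in KO of couple 1 and lower in KO of couples 2 and 3, with 0 of 4 called by limma and 1 at an unadjusted p under 0.05. No gene of these lists was at 0 in all libraries, and the part of cell composition in the variable gene levels was not tested.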

How the data were processed

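RNA of 8 ileal sections was enriched with oligo(dT), per the labels' protocols. It was sequenced on an Illumina HiSeq 2000 or an Ion Proton instrument, and reads were mapped to GRCm38.76 by CLC genomic workbench 7.5, per the series' design text. The instrument of each library, the read counting, strand handling and normalization are not stated there. The values that the authors deposited have no named unit and were taken as RPKM, an assumption, since they are not whole numbers and their sums are not those of CPM or TPM values. Couples 1 and 2 hold the same set of values in each of their 4 libraries, as quantile normalization would give. Depth is unknown and no counting interval was computed.

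Levels were analysed as log2(value + 1), which understates changes of low genes. Genes at 1 or more in at least 3 of 6 untreated libraries were fitted with limma 3.58.1 (trend) in R 4.3.3, with Benjamini-Hochberg adjustment over all 11717 genes and a threshold of 0.05. The fit was tested on simulated data, where 194 of 200 changed genes were recovered among 11717 genes. The planted changes were log2 3 in either direction, with residual SDs drawn from all tested genes (median 0.25). The members had larger residual SDs (median 1.06 for Igkv and 0.93 for Ighv) and mostly smaller changes. The recovery of such changes was not tested. The main fit had no block. The labels pair the mice of a couple as littermates, whose deviations from the group means were correlated (r = 0.622, 0.637 and 0.508 over all tested genes, and 0.101, 0.293 and 0.096 over the 172 tested members), so counts and calls with the couple as a block are given where they change. P-values of the main fit measure the spread between mice of a genotype, which also holds differences of litter, sex and set of values. In the test over 8 libraries each antibiotic group has 1 library, so its spread comes from the untreated mice alone.

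Stretches of 50 bases were compared between the GENCODE M21 transcripts of all variable genes. Read lengths are not known here, and the mice were FVB while the reference is C57BL/6J. The members, lists and naming rule (called members, leading members, and the largest ratios in each couple) were chosen with earlier results of these data known. Alternatives were another pseudocount or filter, quantile normalization, all 8 libraries, and leaving out each library. The planned search for the promoter octamer was not run for these members.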

Additional observations from a re-analysis of the deposited data

Results flagged for a closer look

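Among the 56 members named by rule, 7 had 1 direction in all 3 untreated couples and the opposite direction in the antibiotic couple. The rule takes in the most extreme ratios of the antibiotic couple itself, so such members were partly selected for. The share of all members or of all genes with such a reversal was not computed. The log2 KO over WT ratio with antibiotics (on level + 1) was 4.98 for Igkv2-137 and 1.96 for Igkv6-14, which were lower in KO in the untreated couples. It was -4.37 for Igkv11-125, -1.79 for Igkv1-122, -1.25 for Ighv1-23, -1.04 for Ighv1-15 and -0.51 for Ighv5-17, which were higher in KO in the untreated couples. By the limma test over 8 libraries the difference was 5.55 (SE 0.85, adjusted p = 0.224) for Igkv2-137, and the other 5 tested ones did not pass either. The smallest adjusted p of any member was 0.197, for Igkv7-33 (14.4 in KO and 0.26 in WT with antibiotics). Igkv11-125 was not tested, because its WT value with antibiotics is shared with Igkv1-110.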

How the results depend on the processing

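Of the 4 called Igkv members and the 1 called Ighv member, the count moved to 18 and 19 with the couple as a block (2145 in place of 253 for all genes) and to 0 and 0 without the filter on low values (11 for all genes). It was 2 for Ighv with a pseudocount of 5 or a filter at 5. With all 8 libraries, all genes called were 102. Without 1 library at a time the counts were 1 to 3 for Igkv, 0 to 3 for Ighv and 62 to 141 for all genes. Within couples 1 and 2 alone, an alternative added after the data were seen, they were 0, 0 and 0 without a block and 20, 20 and 523 with one. The cause of these differences was not tested. For the sums, the settings left out the highest member, the members under 1 or the irregular members, or took the median of the member ratios. Each of these kept KO higher in each couple. The members under 1 held little of the sums, and quantile normalization was not applied to the sums. The mean number of members above 10 was 52.3 (Igkv) and 51.3 (Ighv) in untreated KO and 36.3 and 36.3 in untreated WT. On the scale of the Simpson share, the KO minus WT difference in concentration was -2.35 percentage points for Igkv in couple 3, and -2.76 (Igkv) and -0.74 (Ighv) in the antibiotic couple. Over the main results, 79 comparisons of a setting with the reported value stayed within the spread or within 1.5 times the count, and 34 moved. For the called members, 19 comparisons kept an adjusted p under 0.05 by limma and 16 did not. The spread is the SD over 3 couples, so a change of sign can lie within it. The KO minus WT difference in the highest Igkv share of couple 1 was 1.71 percentage points, and -0.82 without the irregular members.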
